A study of Mus musculus with 15 samples.

Results

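Mouse embryonic stem cells that carried a knockout of Myc were compared with unedited cells of the same line, J1, by RNA sequencing, across all expressed genes. The comparison used 6 of the study's 15 libraries: 3 labelled cMyc-KO (Myc-KO below) and 3 of J1 cells labelled as the wild type control for that knockout (WT-Myc). The other 9 libraries hold knockouts of Taf5l and Taf6l, which encode subunits of the SAGA coactivator, and a J1 wild type of their own. Of 37310 genes in the count table, 14563 had enough reads in these 6 libraries to be tested. J1 is an established line of male mouse embryonic stem cells. All 6 libraries came from untreated cells in serum medium with the cytokine LIF, which holds stem cells undifferentiated. No feeder layer, age or passage is named. The labels do not say which part of Myc was removed. They carry the code MycC5 for all 3 knockout libraries without saying whether it stands for 1 clone, so a clone's own history and the loss of Myc cannot be told apart here. Nothing says that the replicates were separate cultures, and the p-values then describe how far these libraries scatter, which can be technical.

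MYC is a transcription factor that pairs with MAX and binds E-box DNA, whose best known form reads CACGTG. It raises genes for ribosome production, nucleotide synthesis, glycolysis and entry into the cell cycle, competes for MAX with the MXD repressors and MNT, and has the relatives MYCN and MYCL. In stem cells grown with LIF, MYC is known as a target of the LIF pathway and as a partner of the self-renewal programme, and MYCN can take over part of its role.

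The 3 Myc-KO libraries held between 22193018 and 27650813 estimated read counts and the 3 WT-Myc libraries between 17922864 and 23869375. Myc-KO replicate 3 stood apart from replicates 1 and 2. The squared differences of its counts from theirs were 36.4 and 26.3 times those that counting noise gives (chi-square per degree of freedom over genes). This measure was 5.07 between replicates 1 and 2 and 3.47 to 9.32 among the WT-Myc libraries. Between Myc-KO and WT-Myc libraries it ran from 35.2 to 63.9. Counts below are therefore given with and without replicate 3. Small noncoding RNA made up 0.0206% to 0.0569% of counts in the Myc-KO and WT-Myc libraries and 1.99% to 3.10% in the 9 others, although the labels give a single protocol (depletion of ribosomal RNA) for all. The stem cell identity in the labels fitted the markers: 35 pluripotency genes summed to between 15031.6 and 16172 CPM (counts scaled to a common library size) in Myc-KO and between 14029 and 14614.6 in WT-Myc, with Pou5f1, Sox2, Nanog, Zfp42 and Esrrb all present. The 20 fibroblast markers, of which 3 were at 0 in all 6 libraries, summed to between 65.0252 and 73.2803 CPM in Myc-KO and between 56.6316 and 60.6216 in WT-Myc, so the sums did not overlap. Among the collagen markers Col1a1 ran from 1.01 to 2.01 CPM over the 6 libraries and Col1a2 and Col3a1 did not exceed 0.253 and 0.108, while Thy1 ran from 3.36 to 4.82. Primitive endoderm markers summed to between 3927.62 and 4248.59 CPM in Myc-KO and between 3969.45 and 4171.89 in WT-Myc, and these sums overlapped.

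Myc RNA was lower in every knockout library but was not lost. Myc (ENSMUSG00000022346.8) lay at 31, 28.5 and 28 CPM in the 3 Myc-KO libraries and at 64.7, 68.8 and 66.7 in the 3 WT-Myc libraries. All knockout libraries were below all wild-type libraries, as was the case for 26.7% of tested genes (22.9% had all 3 above), and the log2 fold change was -1.19 ± 0.060 (SE, n = 3 per group, edgeR quasi-likelihood test, adjusted p = 2.1e-05). Values written with ± below are log2 fold changes, Myc-KO minus WT-Myc, with their SE. The remaining reads cannot be assigned to an intact or an altered transcript from counts per gene, so the level checks the direction of the labels and not the loss of protein. Without replicate 3 the log2 fold change was -1.14.

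The rest of the MYC network moved little. The 14 tested network genes encode MYC, its relatives, MAX, the MAX-like MLX and proteins that pair with either, with Zbtb17 added. Of these 14, 1 was called higher and 3, Myc among them, were called lower at an adjusted p below 0.05. Of all tested genes 15.2% were called higher and 19.5% lower. Mycn lay at 185, 183 and 170.3 CPM in Myc-KO and 193, 199 and 205 in WT-Myc. The groups did not overlap, but the difference of -0.15 ± 0.051 did not pass (edgeR adjusted p = 0.053). In the deposited FPKM values, Mycn was the more abundant of the pair in both groups. Its mean FPKM was 189 against 54.8 for Myc in Myc-KO and 211 against 124 in WT-Myc. By CPM the means were 179 against 29.2 in Myc-KO and 199 against 66.8 in WT-Myc. The gap differs in size between the measures, and the lengths behind the FPKM values were not checked. Mycl1, which encodes MYCL, had a log2 fold change of 0.34 ± 0.11 from 12.7, 10.7 and 11.5 CPM in WT-Myc to 16, 15.3 and 12.9 in Myc-KO. Mnt, a repressor that competes for MAX, had one of -0.28 ± 0.067, and Mlxipl, which encodes the glucose-responsive factor ChREBP and was scarce at 0.857, 1.06 and 1.3 CPM in WT-Myc, one of -1.17 ± 0.28. These 3 calls were each lost under several alternatives. Max itself was at 109, 114 and 124 CPM in the knockout and 107, 104 and 106 in the wild type, a difference that did not pass (0.14 ± 0.059). Mga, Mxd1, Mxd3, Mxd4, Mxi1, Mlx, Mlxip and Zbtb17 had log2 fold changes between -0.17 and 0.10, and none passed.

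**Figure D1:**
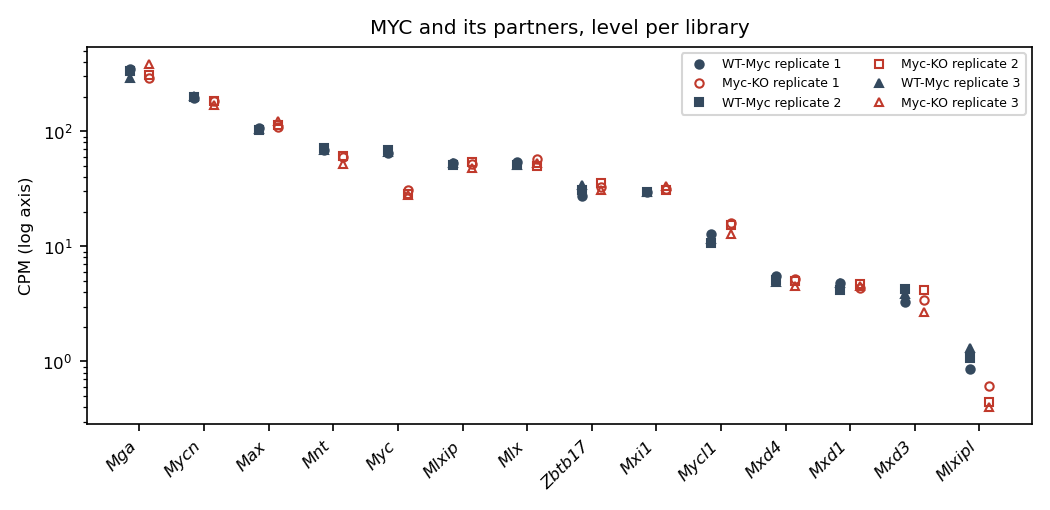
Level of each of the 14 network genes in every library, in CPM on a log axis; filled symbols are WT-Myc and open symbols Myc-KO, with circles, squares and triangles for replicates 1, 2 and 3. Myc shows the clear gap between groups, with means of 29.2 CPM in Myc-KO and 66.8 in WT-Myc.

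Beyond Myc, many genes differed, most of them by less than 2-fold. At an adjusted p below 0.05, 2217 genes were higher and 2847 lower in Myc-KO, together 34.8% of those tested. Of them, 885 (6.08% of tested genes) differed by at least 2-fold, 303 higher (2.08%) and 582 lower (4.0%). Without replicate 3, 2876 genes were higher (19.4% of 14822 tested) and 3047 lower (20.6%), together 40.0%, and without WT-Myc replicate 2 it was 1364 and 2038. Scaling by library totals instead, 2691 were higher and 2450 lower, so the excess of lower calls depends on the scaling. Genes of low mean count gave fewer calls: with genes cut into 4 equal classes by mean count, 9.50% were higher and 16.3% lower in the lowest class, and 16.2% and 20.3% in the highest.

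The largest rise was that of Efhc2, an X-linked gene for an EF-hand protein. Efhc2 went from 1.49, 1.06 and 1.52 CPM in WT-Myc to 59.7, 63 and 91.2 in Myc-KO, a log2 fold change of 5.72 ± 0.23 (edgeR adjusted p = 8.4e-06). It was close to silent in the wild type and high in all 3 knockout libraries, most of all in replicate 3. H19, an imprinted noncoding RNA that restrains growth, rose from 0.857, 1.43 and 1.43 to 9.13, 10.3 and 10.1 CPM (2.96 ± 0.17). Dock10, a guanine nucleotide exchange factor, went from 1.54, 1.48 and 1.35 to 7.47, 7.26 and 7.88 CPM, a log2 fold change of 2.37. In order of size, the next rises by the same rule (at least 100 counts on average and groups that did not overlap) were Clca4 (2.19), D1Pas1 (2.17), Slc11a1 (2.13), the chemokine gene Ccl25 (2.10), Eif2s3y (2.09), the tuft-cell factor Pou2f3 (2.04), the lymphoid repressor Bach2 (1.71), Adamts13, which encodes the protease of von Willebrand factor (1.70), and Ddx3y (1.69). The call for Bach2 was lost when FPKM values were tested. Slc11a1, a metal transporter of phagosomes, went from 2.51, 2.68 and 3.2 to 11.9, 12.9 and 12.3 CPM, and D1Pas1, an autosomal copy of the Ddx3 helicase genes, from 42.2, 39.1 and 39.4 to 175, 179.5 and 189.6. D1Pas1, Eif2s3y and Ddx3y have related genes elsewhere with which reads may be shared, which was not tested.

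Galnt6 fell furthest among the genes that met that rule. This enzyme, which starts mucin-type sugar chains on proteins, lay at 15.4, 17.2 and 16.5 CPM in WT-Myc and at 1.29, 1.1 and 0.73 in Myc-KO, a log2 fold change of -3.98 ± 0.17 (edgeR adjusted p = 1.0e-05). The imprinted Polycomb-related gene Sfmbt2 went from 107, 107 and 97.9 to 21.3, 17.5 and 19 CPM (-2.43 ± 0.083), and Peg10, an imprinted gene derived from a retrotransposon, from 812, 846 and 776 to 203, 184 and 205 (-2.04 ± 0.060). Both were abundant in the wild type. Extracellular proteins were among the remainder: Adamts14, a procollagen protease (-2.50), Smoc1, a BMP antagonist (-2.34), and the secreted glycoprotein gene Stc2 (-2.18). Gatsl3, which encodes the arginine sensor CASTOR1 of the mTORC1 pathway, went from 59.8, 57.6 and 67 to 16.8, 14.5 and 10.4 CPM (-2.15 ± 0.16). Ddit4, an inhibitor of mTORC1 that stress induces, went from 57.6, 56.9 and 61 to 15.2, 14.2 and 13.2 (-2.04 ± 0.069). Cyyr1, Mobp, Urgcp and Rtkn had log2 fold changes between -2.45 and -2.05.

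**Figure D2:**
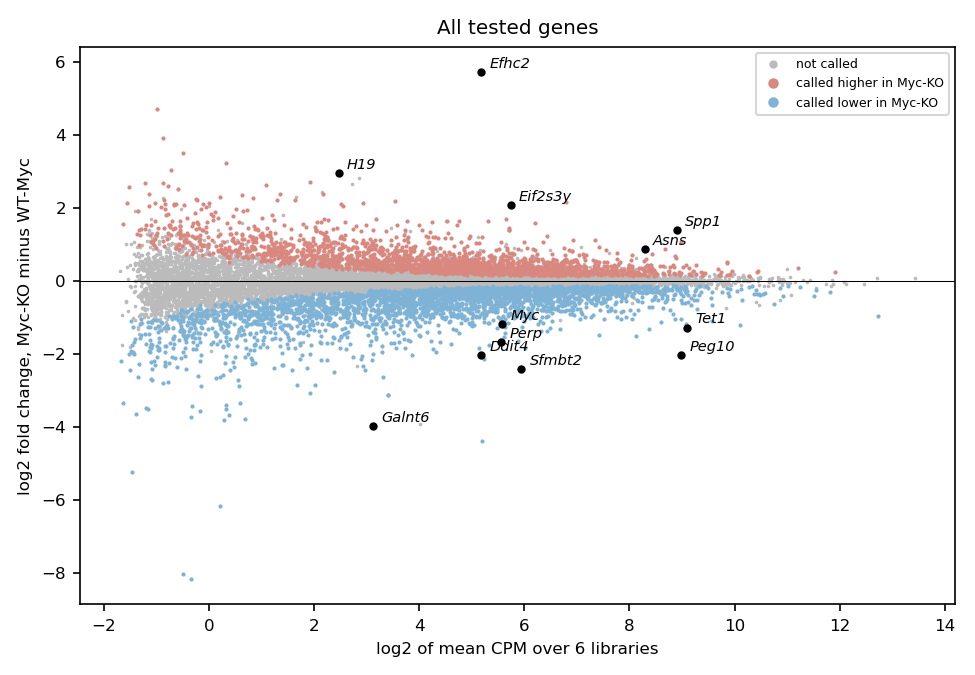
Log2 fold change (Myc-KO minus WT-Myc) of all 14563 tested genes against the log2 of their mean CPM; red and blue points are genes called higher and lower, grey points are not called, and selected genes of the text are in black. Efhc2 at 5.72 stands far above the rest of its abundance range.

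Genes known as MYC targets were lower more often than higher, by small amounts. Of 79 tested members of a list of 80, 34 fell and 3 rose, beside 19.5% and 15.2% of all tested genes, and the median log2 fold change was -0.11 (all genes: -0.0018). Leaving out 1 library at a time gave 24 lower (without WT-Myc replicate 2) to 37 (without Myc-KO replicate 3), and at most 5 higher. With the replicate number as a block 17 were lower and 0 higher, where 1923 of all genes were lower and 1216 higher. On log2(FPKM + 1) and log2(FPKM + 0.1) 19 and 18 were lower and 1 was higher, where 1636 and 1640 of all genes were lower. The list's members that moved most clearly were Sord, a sorbitol dehydrogenase, from 37.1, 37 and 37.6 to 14.7, 15.4 and 14.2 CPM (-1.34 ± 0.059), and Ccnd2, which encodes cyclin D2, from 39.99, 36.9 and 36.6 to 19.6, 17.9 and 18.5 (-1.02 ± 0.065). Supv3l1, a mitochondrial RNA helicase, had a log2 fold change of -0.95 ± 0.075. Ipo4, an importin, went from 147, 154 and 157 to 87.7, 81.2 and 74.9 CPM (-0.91 ± 0.067) and Apex1, a DNA repair endonuclease, from 234, 229.9 and 245 to 151, 149.7 and 140.1 (-0.69 ± 0.051). Both lie on chromosome 14, where 49.1% of tested genes were lower, and with that chromosome left out 32 of 76 members were lower and 3 higher in the same fit.

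The E-box was common in the promoters of this list, but no more common in those that fell. Promoters (250 bases before to 50 after the start, RefSeq, GRCm38.p6) were found for 69 of the 79 tested genes, with 78 windows, of which 23 (29.5%) held CACGTG, a sequence that reads the same on both strands. Of the 31 windows of members called lower, 9 (29.0%) held it. Over all tested genes with a window the share was 10.1%, and it was 9.94% for genes called higher, 10.1% for genes called lower and 10.2% for genes not called; it was 7.15% in all 32851 windows of the table. A match describes these letters only and is not a bound site. The following 4 windows are those of the members called lower with the smallest p that hold CACGTG, shown so that the motif's place can be seen; capitals mark CACGTG.
Ipo4 (GRCm38.p6 chr14:55635635-55635934, minus strand): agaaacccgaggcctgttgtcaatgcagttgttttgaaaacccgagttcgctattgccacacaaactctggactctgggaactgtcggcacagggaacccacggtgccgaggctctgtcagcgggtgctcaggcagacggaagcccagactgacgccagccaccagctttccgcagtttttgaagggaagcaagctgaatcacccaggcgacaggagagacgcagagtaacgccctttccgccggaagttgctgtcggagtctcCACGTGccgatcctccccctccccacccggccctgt
Apex1 (GRCm38.p6 chr14:50924699-50924998, plus strand): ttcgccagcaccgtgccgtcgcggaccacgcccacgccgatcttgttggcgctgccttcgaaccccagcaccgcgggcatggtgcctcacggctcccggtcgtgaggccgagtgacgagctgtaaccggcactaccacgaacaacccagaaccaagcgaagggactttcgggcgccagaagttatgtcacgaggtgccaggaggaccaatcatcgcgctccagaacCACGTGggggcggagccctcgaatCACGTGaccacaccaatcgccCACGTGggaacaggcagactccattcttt
Pes1 (GRCm38.p6 chr11:3963725-3964024, plus strand): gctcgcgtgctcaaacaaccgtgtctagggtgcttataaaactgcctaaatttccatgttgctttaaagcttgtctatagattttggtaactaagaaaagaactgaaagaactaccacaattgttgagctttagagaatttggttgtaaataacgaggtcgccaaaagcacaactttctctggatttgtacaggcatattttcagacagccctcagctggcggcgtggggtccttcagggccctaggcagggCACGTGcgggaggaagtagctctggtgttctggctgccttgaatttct
Ldha (GRCm38.p6 chr7:46845554-46845853, plus strand): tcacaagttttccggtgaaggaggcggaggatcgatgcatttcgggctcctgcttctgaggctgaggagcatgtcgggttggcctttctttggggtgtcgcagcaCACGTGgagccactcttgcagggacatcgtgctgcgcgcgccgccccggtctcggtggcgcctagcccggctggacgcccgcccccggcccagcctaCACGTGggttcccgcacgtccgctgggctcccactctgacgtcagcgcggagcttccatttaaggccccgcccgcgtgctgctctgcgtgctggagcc
The motif occurs once in Ipo4 and Pes1, 2 times in Ldha and 3 times within a short stretch of Apex1. Pes1, a ribosome assembly factor, went from 357, 360.3 and 370.4 to 251, 239 and 232 CPM (-0.59 ± 0.047), and Ldha, the lactate dehydrogenase of glycolysis, from 1517, 1516 and 1595 to 1244, 1235 and 1149 (-0.35 ± 0.048).

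For ribosome production, the best known output of MYC, the list of biogenesis factors gave calls near the background, with some clear changes among members. Of 80 tested factors of ribosome biogenesis, 20 fell and 8 rose (19.5% and 15.2% of all genes), without replicate 3 the counts were 26 and 10, and without Myc-KO replicate 2 they were 13 and 8, and without WT-Myc replicate 2 or 3 they were 15 and 5. Ddx21, an RNA helicase of rRNA synthesis, fell from 637, 638 and 616 CPM in WT-Myc to 290.3, 294 and 326 in Myc-KO (-1.05 ± 0.055). Ddx56 (-0.79 ± 0.062), Nhp2 of the box H/ACA particles (-0.54 ± 0.050) and Heatr1 of the small subunit processome (-0.48 ± 0.040) also fell, while Rcl1, another processing factor, rose (0.55 ± 0.062). The share of members that fell, 20 of 80, was near the background. That share leaves out Pes1, which was counted among the MYC targets, because few genes were placed in more than 1 list. Genes for structural proteins of the cytosolic ribosome gave few calls: of 77 tested, 7 rose and 1, Rps27a, fell. The higher count was 20 without Myc-KO replicate 3 (19.4% of all genes), 5 and 4 without Myc-KO replicates 1 and 2, 4 without WT-Myc replicate 1 or 3, and 1 without WT-Myc replicate 2. The per-library medians of that list against the wild-type mean were 0.098 and 0.068 in Myc-KO replicates 1 and 2 and -0.11 in replicate 3, while those of the WT-Myc libraries ran from -0.083 to 0.093, so the groups overlapped. Many of these genes have processed pseudogenes that can share reads.

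Among lists of protein and nucleotide synthesis, calls were read against 19.5% lower and 15.2% higher of all tested genes. Translation factors were at or under that background, with 6 lower and 2 higher of 38, although single members changed clearly. Eif4g3, a scaffold of the cap-binding complex, lay at 8.12, 8.23 and 8.39 CPM in Myc-KO and 30.1, 29.5 and 31.3 in WT-Myc (-1.88 ± 0.066, edgeR adjusted p = 5.3e-06). Eif4ebp2, which restrains cap-dependent translation, also fell (-0.81 ± 0.052), and Eif4e2 rose (0.28 ± 0.047). Of 20 aminoacyl-tRNA synthetases 6 fell and 1 rose. The lower count was 2 without Myc-KO replicate 2 or WT-Myc replicate 2, 3 without WT-Myc replicate 1 and 8 without Myc-KO replicate 3. Wars, for tryptophan, had the largest change among those named by smallest p (-0.84 ± 0.075). Of 41 enzymes of nucleotide and one-carbon synthesis 12 fell and 3 rose, with a median of -0.10. The lower count was 6 and 7 without WT-Myc replicates 3 and 2 and 13 without Myc-KO replicate 3, and the higher calls were lost when any WT-Myc library was left out. Those that fell included Pfas of purine synthesis (-0.42 ± 0.041), Dhodh of pyrimidine synthesis (-0.52 ± 0.059), Phgdh of serine synthesis (-0.54 ± 0.066), Rrm2 of deoxynucleotide supply (-0.29 ± 0.048) and Prps2, which makes the ribose donor for nucleotides and went from 70.6, 63.3 and 55.1 to 28.8, 28.3 and 36.7 CPM (-1.01 ± 0.12). Of 12 polyamine genes 3 fell, Sms, Dhps and Smox, and 2 rose, Adi1 and Sat1, which is near the background in both directions.

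Cell cycle genes moved in both directions. Of 20 regulators of the first gap phase 8 fell and 2 rose, beside 19.5% and 15.2% of all tested genes; 1 was higher without WT-Myc replicate 1 or 2. Cyclins that push cells into replication were among those that fell: Ccnd1 went from 269.9, 265 and 275 to 193, 195 and 197 CPM (-0.47 ± 0.041), and Ccne1, cyclin E1, from 204, 219.9 and 218 to 146, 142 and 141 (-0.58 ± 0.048). Inhibitors fell as well: Cdkn1a, which encodes p21, had a log2 fold change of -0.68 ± 0.062, the imprinted Cdkn1c, which encodes p57, one of -1.59 ± 0.10, and the pocket protein gene Rbl2 one of -0.98 ± 0.10. The list's median was -0.0094 and changed sign with RLE scaling and with library totals. Of 44 DNA replication genes 11 rose and 7 fell, the latter below the background share, and without WT-Myc replicate 2 the counts were 5 and 6. The members with the smallest p all fell: E2f2 (-0.74 ± 0.080), the licensing factor Cdt1 (-0.57 ± 0.077), Pold2 (-0.47 ± 0.072), Pole (-0.36 ± 0.047) and E2f3 (-0.36 ± 0.049), the last of which turned sign on FPKM values. Of 30 mitotic genes 10 rose and 3 fell, with a median of 0.10; without replicate 3 the counts were 14 and 4, without WT-Myc replicate 1 or 2 the higher count was 7, and the lower count was at most 2 when any other library was left out. Cdc25b, a phosphatase that starts mitosis, went from 17.9, 16.8 and 17.5 to 29.4, 26.3 and 24.9 CPM (0.63 ± 0.079), and Ccnb2, Cenpa, Nek2 and Kif20a rose by 0.20 to 0.37.

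Most targets of p53 were lower in the knockout. p53, the product of Trp53, is the transcription factor that halts or kills damaged cells, and its targets include brakes on the cell cycle and death genes. Of 38 tested targets 27 fell and 1 rose, beside 19.5% and 15.2% of all genes, and the median log2 fold change was -0.54. Without replicate 3 the counts were 28 and 2 and the median -0.53. The 3 Myc-KO libraries lay close together, with list medians of -0.49, -0.51 and -0.50 against the wild-type mean, while the WT-Myc libraries lay between -0.0093 and 0.0063. Perp, a membrane protein of the death programme, went from 75.1, 69.7 and 70.4 to 22.1, 22 and 23.2 CPM (-1.68 ± 0.057, edgeR adjusted p = 5.3e-06). Plk2, a kinase of the damage response, stood at 50.4, 50.7 and 50.7 in Myc-KO and 112, 112 and 114 in WT-Myc (-1.16 ± 0.047), and Btg2, which slows proliferation, at 45.4, 43.8 and 42.5 and 88.6, 87.1 and 87 (-1.0 ± 0.051). Plk3 (-1.12 ± 0.073) and Zmat3, an RNA-binding target (-0.83 ± 0.049), followed.

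Trp53 itself was lower, at 517, 484 and 451 CPM in Myc-KO and 644, 674 and 679.6 in WT-Myc (-0.46 ± 0.057, edgeR adjusted p = 7.7e-04). Of 18 tested regulators and relatives of p53, 8 fell and 2 rose (19.5% and 15.2% of all genes). Without replicate 3 the counts were 10 and 2, and the higher calls were lost when any WT-Myc library was left out. The relative Trp73 went from 18.8, 17.9 and 20.8 to 9.7, 7.17 and 9.42 CPM (-1.13 ± 0.13), the kinase gene Hipk2, whose product phosphorylates p53, from 26.2, 28.5 and 27.5 to 14.9, 14.2 and 14.5 (-0.92 ± 0.065), the coactivator Crebbp had -0.59 ± 0.077, and Ppp1r13l, an inhibitor of p53, had -0.62 ± 0.080. Of 23 members of the BCL2 family and caspases 5 rose and 4 fell, near the background in both directions, and the higher count was 2 without WT-Myc replicate 1 or 2 and 3 without WT-Myc replicate 3. Bmf, a death promoter (0.62 ± 0.071), rose, whereas Bcl2l11, which encodes the death promoter BIM (-0.38 ± 0.075), Casp8 (-0.65 ± 0.13) and the survival gene Bcl2l2, on chromosome 14 (-0.64 ± 0.11), fell.

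Genes of the hypoxia response were also lower. The HIF factors bind a short core, ACGTG or GCGTG, and raise genes for oxygen supply and glycolysis. Of 31 tested targets and factors 17 fell and 3 rose, beside 19.5% and 15.2% of all tested genes, with a median of -0.29 (all genes: -0.0018). Leaving out 1 library at a time gave 14 to 17 lower and 3 higher. Vegfa, the growth factor of blood vessels, went from 16.9, 17.4 and 16 to 7.39, 7.61 and 7.96 CPM (-1.13 ± 0.079), P4ha1, a collagen hydroxylase, from 46.3, 45.9 and 45.5 to 18.1, 21.9 and 19.6 (-1.21 ± 0.075), and Epas1, which encodes HIF-2alpha, from 70.04, 68.9 and 65.7 to 36.6, 34.7 and 35.8 (-0.93 ± 0.054). With Ddit4 and Stc2 above, these are the 5 members with the smallest p. Of 18 glycolysis genes 5 fell, among them Hk1 (-0.68 ± 0.054), Tpi1 (-0.50 ± 0.059), Pgk1 (-0.41 ± 0.057) and Eno1 (-0.32 ± 0.053), and 2 rose, among them Ldhb (0.59 ± 0.050); the list's median of -0.0086 changed sign with RLE scaling and with library totals.

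The HIF core is short and frequent, so its presence separates little. It was searched as ACGTG and GCGTG on both strands, and every CACGTG also counts as an ACGTG match. It lay in 26 of 33 windows of the hypoxia list (78.8%) and in 16 of the 19 windows of its members called lower (84.2%), beside 61.4% of the windows of all tested genes. The MYC targets had higher shares, with the core in 83.3% of their windows and 87.1% of the windows of members called lower. The windows of the 2 members called lower with the smallest p that hold it are shown, with the core in capitals on either strand (CACGC is GCGTG on the other strand).
Ddit4 (GRCm38.p6 chr10:59951721-59952020, minus strand): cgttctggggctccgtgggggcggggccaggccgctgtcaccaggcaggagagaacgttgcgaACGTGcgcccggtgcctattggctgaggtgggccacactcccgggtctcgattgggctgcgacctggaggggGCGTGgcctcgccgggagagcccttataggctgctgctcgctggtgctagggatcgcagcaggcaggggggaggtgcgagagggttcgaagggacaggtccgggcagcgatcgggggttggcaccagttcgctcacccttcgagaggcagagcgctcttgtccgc
Stc2 (GRCm38.p6 chr11:31370012-31370311, minus strand): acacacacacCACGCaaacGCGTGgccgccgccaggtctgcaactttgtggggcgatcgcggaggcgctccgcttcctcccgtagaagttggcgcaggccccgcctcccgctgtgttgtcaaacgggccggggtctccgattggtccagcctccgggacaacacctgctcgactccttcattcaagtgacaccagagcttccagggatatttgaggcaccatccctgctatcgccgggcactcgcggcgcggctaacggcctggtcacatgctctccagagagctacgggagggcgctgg
Each of the 2 windows holds the core 2 times.

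Genes of the respiratory chain gave no more calls than the background with all 6 libraries, and the counts changed with replicate 3. Of 13 tested protein genes of the mitochondrial genome only mt-Co1 passed with all 6 libraries (34.8% of all tested genes did), whereas 11 fell without replicate 3 (20.6% of all genes). mt-Co1, a catalytic subunit of complex IV, lay at 3796, 3689.6 and 6344 CPM in Myc-KO and at 10189, 9266 and 7345 in WT-Myc (-0.95 ± 0.22). mt-Atp6, a subunit of the ATP synthase, was at 1006, 1110.0 and 3449 and 2459, 2133 and 1380.4, so that replicates 1 and 2 lay below all wild-type libraries and replicate 3 above them. The whole mitochondrial genome took 1.28%, 1.29% and 2.56% of counts in Myc-KO replicates 1, 2 and 3 and 2.73%, 2.47% and 1.92% in the WT-Myc libraries. Fewer mitochondrial transcripts per cell and a library's own recovery of them cannot be told apart. Of 48 nuclear genes of oxidative phosphorylation 7 rose and 2 fell, beside 15.2% and 19.5% of all genes. Without Myc-KO replicate 3, 18 rose and 1 fell (19.4% and 20.6% of all genes), without Myc-KO replicate 2 it was 4 and 1, and without WT-Myc replicate 2 it was 3 and 1. Ndufs4 of complex I (0.31 ± 0.053), Atp5c1 of the ATP synthase (0.26 ± 0.049) and Sdhb of complex II (0.33 ± 0.065) rose by small amounts.

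The central pluripotency factors differed little, and other genes of the programme changed in both directions. Of 35 tested genes of the core and naive state 14 rose and 8 fell, beside 15.2% and 19.5% of all tested genes, the lower share being near the background. Without replicate 3 the counts were 16 and 9, and without Myc-KO replicate 2 or WT-Myc replicate 2 the lower count was 5. Pou5f1, the central factor Oct4, did not pass, at 1480.1, 1441 and 1272 CPM in Myc-KO and 1372, 1352 and 1471 in WT-Myc, nor did Sox2 (0.012 ± 0.067) or Nanog (0.13 ± 0.052). Zfp42, the naive marker Rex1, rose from 736, 723 and 739 to 896, 921 and 917 (0.31 ± 0.038), and Esrrb had 0.16 ± 0.048, a call that was lost when any WT-Myc library was left out. Spp1, the secreted osteopontin, rose from 269, 261 and 261 to 661, 678 and 740.2 CPM (1.39 ± 0.053), and Tbx3 (0.40 ± 0.040) and Lin28a (0.37 ± 0.038) rose by less. Tet1, which oxidises methylated DNA, fell from 777, 795 and 747 to 299, 296 and 358 CPM (-1.28 ± 0.078), and Tcl1, an AKT cofactor, also fell (-0.68 ± 0.064). Of 15 genes of the LIF pathway, to which Myc belongs as a target, 3 rose and 5 fell: Ifitm3 (1.06 ± 0.055) and Jak2 (0.95 ± 0.19) rose, and Lifr, the receptor (-0.35 ± 0.065), Junb (-0.73 ± 0.091) and Gbx2 (-0.55 ± 0.076) fell.

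For the formative and primed epiblast, the next step of development, the list differed in 18 of 22 cases, 11 lower and 7 higher (19.5% and 15.2% of all genes), with a median of -0.21; without replicate 3 it was 11 and 8, and among the 18 members outside chromosome 14 it was 10 and 5. Nodal, the ligand of that stage, went from 124, 126 and 129 to 53.7, 53.9 and 47.8 CPM (-1.29 ± 0.063). Dnmt3l, a cofactor of new DNA methylation, went the other way, from 288, 290.2 and 297 to 551, 546 and 492 (0.86 ± 0.054), as did Foxd3 (0.89 ± 0.10) and the FGF target Etv4 (0.61 ± 0.062). Sall2, on chromosome 14, fell (-0.72 ± 0.069). Of 21 genes of TGF-beta, Nodal and BMP signalling 7 fell and 2 rose (at most 1 without Myc-KO replicate 2 or any WT-Myc library), with the receptors Bmpr1a, on chromosome 14 (-0.71 ± 0.13), and Bmpr2 (-0.62 ± 0.085), the ligand Bmp7 (-1.21 ± 0.24) and the SMAD inhibitor Skil (-0.79 ± 0.11) among those that fell. Of 22 WNT genes 9 fell and 2 rose: the ligands Wnt7b (-1.51 ± 0.16) and, on chromosome 14, Wnt5a (-1.28 ± 0.25) fell, as did Znrf3, an inhibitor that removes WNT receptors (-1.02 ± 0.090), the receptor Fzd7 (-0.26 ± 0.044) and Lgr4 (-0.53 ± 0.089). Of 20 immediate early genes 8 fell and 2 rose (1 without WT-Myc replicate 1 or 3), with Jun (-1.01 ± 0.13), Jund (-0.85 ± 0.11), Id1 (-0.64 ± 0.068), Nr4a1 (-0.59 ± 0.083) and Klf10 (-0.58 ± 0.048) all lower.

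Markers of other lineages shifted without a common direction, in lists with few tested members, and their counts were read against 19.5% lower and 15.2% higher of all tested genes. Summed neuroectoderm markers ran from 138.585 to 160.223 CPM in Myc-KO and from 198.517 to 211.82 in WT-Myc, and of 8 tested members 4 fell and 1 rose, with the Notch ligand Dll1 (-2.32 ± 0.22) and Ncam1 (-0.63 ± 0.053) lower and Zfp521 higher (1.38 ± 0.11). In bulk RNA, fewer cells of a type and less RNA per cell cannot be told apart. Mesoderm markers summed to between 35.2612 and 38.1306 CPM in Myc-KO and between 48.4856 and 51.2786 in WT-Myc, with 3 of 9 higher (1 without WT-Myc replicate 2) and 2 lower, and a median that turned from 0.20 to -0.11 without Myc-KO replicate 3. Bmp4, on chromosome 14, fell (-0.84 ± 0.062) and Cdx1 rose (1.62 ± 0.25). Trophectoderm markers summed to 101.082 to 110.305 CPM against 87.6534 to 91.0791, and of 10 tested 3 rose and 4 fell, with the keratins Krt8 (0.89 ± 0.092) and Krt18 (0.97 ± 0.090) higher and Fgfr2 lower (-1.51 ± 0.10). Primitive endoderm markers, the most abundant of these lists, overlapped between groups in their sum given above, with 1 of 16 higher and 5 lower, among them Lama1 (-0.57 ± 0.068) and Hnf4a, scarce at 1.77, 2.45 and 2.65 CPM in WT-Myc (-3.80 ± 0.31). Of 19 germline genes 2 rose and 6 fell. By log2 fold change, Mael (0.60) and Tex19.1 (0.55) rose, and Nanos3 (-2.41), Sohlh2 (-0.75) and Dnd1 (-0.64) were among those that fell. Summed germline markers were nonetheless higher for the knockout, at 197.354 to 198.17 CPM against 176.748 to 183.331. Of 10 tested fibroblast markers 1 rose, Col5a1 (0.37 ± 0.056), and 2 rose without Myc-KO replicate 3. The single tested gene of the 2-cell state did not pass. The 2-cell markers were scarce, with sums of 0.470149 to 1.03503 CPM for the knockout against 2.09473 to 2.45496 for the wild type. The part of these shifts in the results above was not tested.

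Imprinted genes, which are read from the chromosome of 1 parent, changed in 26 of 36 cases (34.8% of all genes did), 17 lower and 9 higher (19.5% and 15.2%), with a median of -0.24; without replicate 3 the counts were 17 and 11. Besides H19, Sfmbt2 and Peg10, the neighbour of Peg10, Sgce, fell from 5.26, 5.36 and 4.8 to 1.41, 1.63 and 1.53 CPM (-1.75 ± 0.13), and Grb10, an adaptor that restrains growth signals, from 101, 109.7 and 99.6 to 59, 60.04 and 63.9 (-0.76 ± 0.061). All 3 tested Y-linked genes rose in all 3 libraries: Eif2s3y from 21.3, 20.9 and 19 to 74.3, 78.4 and 107 CPM, Ddx3y from 26.3, 24.4 and 21.3 to 65.2, 72.5 and 93.7, and Uty from 10.2, 9.8 and 8.12 to 21, 22.2 and 41.9. They were highest in replicate 3, and each has a close X-linked relative with which reads may be shared.

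Stress, immune and housekeeping groups gave smaller or mixed changes, read against 19.5% lower and 15.2% higher of all tested genes. Of 16 interferon and antigen presentation genes 7 rose and 3 fell, with a median of 0.16 (8 and 2 without replicate 3): Oas1a went from 9.48, 10.9 and 10.9 to 24.9, 26.9 and 22.2 CPM (1.24 ± 0.10), Bst2 had 0.83 ± 0.088 and the RNA sensor Ddx58 0.59 ± 0.057, while Irf9, on chromosome 14, fell (-1.07 ± 0.11). Of 25 genes of the ATF4 amino acid response 8 fell and 4 rose; Asns, asparagine synthetase, rose from 224, 221 and 219 to 399, 412 and 402 (0.87 ± 0.040) and Cth rose (0.58 ± 0.043), whereas Slc1a4 (-1.55 ± 0.13), Ddit4l (-1.15 ± 0.084) and Trib3 (-0.77 ± 0.093) fell. Of 37 lysosome and autophagy genes 7 rose and 5 fell, of 22 cholesterol synthesis genes 3 rose and 2 fell, and of 26 chaperones 3 rose and 5 fell, with Cct4 (-0.78 ± 0.057) and Hspa1b (-0.87 ± 0.10) lower and Bag3 higher (0.72 ± 0.060). These 3 lists lay near or under the background. Their counts moved with the library left out: without WT-Myc replicate 2 the lysosome list gave 6 higher and 3 lower, the cholesterol list 1 higher and the chaperones 1 higher and 4 lower. Of 16 glycosyltransferases of the Galnt family, besides Galnt6, 2 fell, Galnt7 and Galnt9, and 3 rose (at most 1 without Myc-KO replicate 2 or WT-Myc replicate 1 or 2). Of 17 cofactors and degraders of MYC 5 fell and 1, Wdr5, which tethers MYC to chromatin, rose, from 283, 279 and 295 to 395, 399 and 369 CPM (0.44 ± 0.049); 3 fell without WT-Myc replicate 2 or 3. Of 19 SAGA subunits 5 fell, including the deubiquitinase Usp22 (-0.48 ± 0.044), and 3 rose, near the background. At most 1 rose when any library other than Myc-KO replicate 3 was left out, and 3 fell without Myc-KO replicate 2 or WT-Myc replicate 2 or 3. Of 21 tested replication-dependent histone genes 7 fell (3 without WT-Myc replicate 1, 4 without WT-Myc replicate 2 or 3) and none rose by edgeR (0 at an unadjusted p below 0.05 and 0 by DESeq2), but their RNA lacks a poly(A) tail, histone genes took only 0.0216% to 0.0322% of counts here against 1.10% to 1.60% in the other 9 libraries, and the counts behind each are few.

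Some calls named above were lost under another scaling, filter, tool or left-out library. Those for Smox, Pole, Casp8, Bcl2l11, Jak2, Bmp7, Fzd7 and Wnt5a were lost when FPKM values were tested with limma, and those for Rps27a, Sat1 and Galnt9 under at least 1 of the others. FPKM and CPM lay far apart for some genes, as for Ipo4 with means of 81.3 CPM and 765 FPKM in Myc-KO. The part of the lengths behind the FPKM values in the lost calls was not tested.

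**Figure D3:**
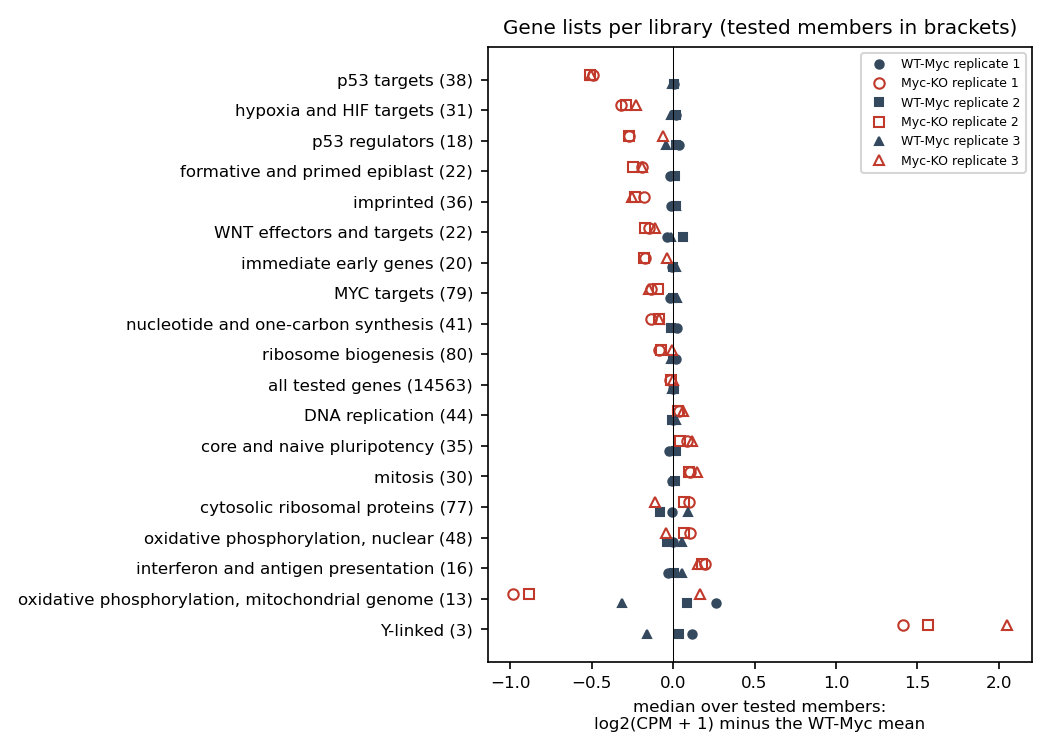
Median over the tested members of selected gene lists, and over all tested genes (number tested in brackets), of log2(CPM + 1) minus the WT-Myc mean, per library; filled symbols are WT-Myc, open symbols Myc-KO, with circles, squares and triangles for replicates 1, 2 and 3. The p53 targets lie between -0.51 and -0.49 in the 3 Myc-KO libraries, while for the genes of the mitochondrial genome replicate 3 lies at 0.17, apart from -0.99 and -0.88 in replicates 1 and 2.

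Genes of chromosome 14 were lower as a block. Of 483 tested genes there 237 (49.1%) were lower and 34 (7.04%) higher, with a median log2 fold change of -0.32. The per-library medians were -0.28, -0.33 and -0.24 in Myc-KO replicates 1 to 3 and lay between -0.021 and 0.012 in WT-Myc. On the other nuclear chromosomes that were compared the median lay between -0.063 (chromosome 12) and 0.046, and the share called lower reached at most 27.2% (chromosome 11). As a share of all counts, chromosome 14 held 2.38% to 2.40% in the knockout libraries against 2.80% to 2.84% in the wild type. The difference in share is larger than the spread within either group. With chromosome 14 left out of the fit, 2187 of 14080 genes were higher (15.5%) and 2537 lower (18.0%).

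**Figure D4:**
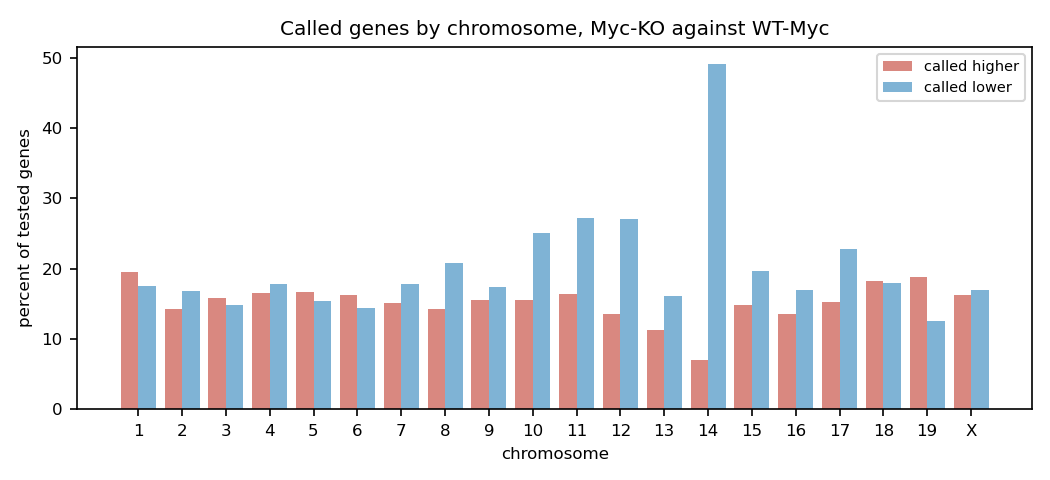
Percent of tested genes called higher (red) and lower (blue) in Myc-KO for each chromosome, with the mitochondrial genome left out and the axis starting at 0. Chromosome 14 stands apart, with 49.1% of genes lower, whereas no other chromosome exceeds 27.2%.

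Replicate 3 kept the direction of most changes, but its counts lay far from those of replicates 1 and 2. The chi-square per degree of freedom was 36.4 between replicates 1 and 3, beside 35.9 between replicate 1 and WT-Myc replicate 3. Over 10473 genes averaging 100 counts or more, 76 were at least 2-fold higher in replicate 3 than the mean of replicates 1 and 2 and 26 at least 2-fold lower, while 22 differed 2-fold between replicates 1 and 2. The SD of the log2 difference was 0.289 for replicate 3 and 0.134 between the other two. Of 4821 such genes called without replicate 3, replicate 3 lay on the other side of the wild-type mean in 334. Both sides of that check use the same WT-Myc libraries, which favours a shared direction. In all, 4702 genes were called in both fits, 1181 only without replicate 3 and 362 only with it. The 4702 had the same direction in both fits, but the fits share every other library, so this says little about replicate 3. Leaving it out also raised the higher calls among translation factors from 2 to 7 of 38, among cholesterol genes from 3 to 8 of 22, among SAGA subunits from 3 to 6 of 19, among nucleotide and one-carbon enzymes from 3 to 5 of 41, among chaperones from 3 to 5 of 26, among LIF pathway genes from 3 to 5 of 15, and among G1 regulators and WNT genes from 2 to 4 of 20 and of 22. The genes farthest above in replicate 3 were mt-Atp8 (26.8, 49.2 and 190.4 CPM in replicates 1, 2 and 3), Zfp534 (28, 48.3 and 139), Zfp808 (17.7, 24.9 and 68.1), mt-Atp6 and the pseudogenes Rpl30-ps9 and Rps2-ps6. Those farthest below were the pseudogenes Rpl10-ps1 (104, 96 and 0), Pgam1-ps2 and Tcea1-ps1, with Sco2, Galnt2 and mmu-mir-2134-2. Several of these are pseudogenes, whose reads may be shared with similar copies, which was not tested.

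**Figure D5:**
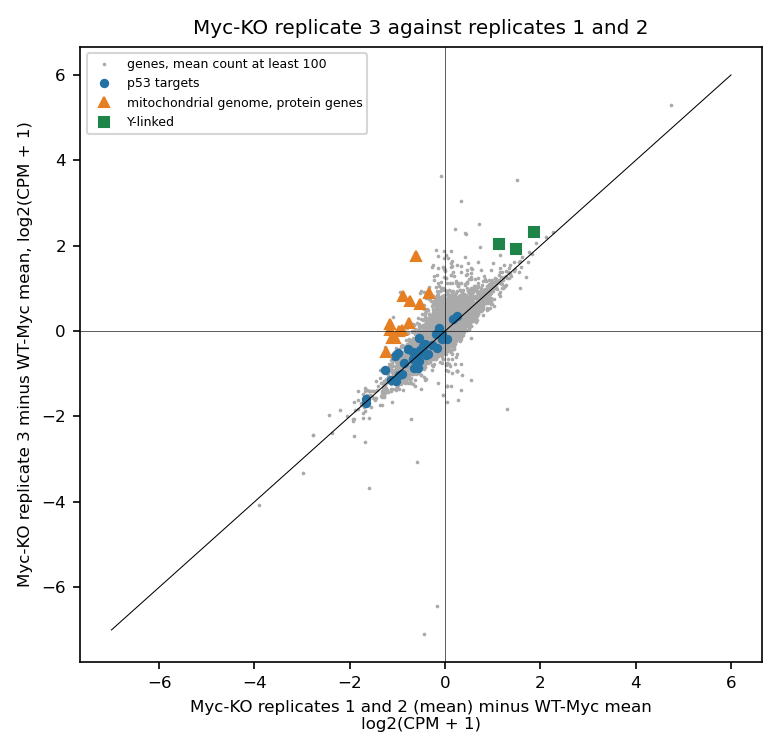
Difference from the WT-Myc mean in log2(CPM + 1) for genes averaging 100 counts or more, with Myc-KO replicates 1 and 2 averaged on the horizontal axis and replicate 3 on the vertical axis; the diagonal marks equality, and p53 targets, protein genes of the mitochondrial genome and Y-linked genes are coloured. The p53 targets follow the diagonal, and the mitochondrial genes lie above it by a median of 1.15.

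The Myc effect was then set against that of the Taf5l and Taf6l knockouts, each relative to the wild type of its own experiment, in a single fit of all 15 libraries. The effects differed in 2997 genes where the Myc effect was the higher (18.4% of 16286 tested) and 2756 where it was the lower (16.9%); without Myc-KO replicate 3 it was 20% and 17.8%. The experiments also differ in RNA makeup, as the share of small noncoding RNA shows, and the part of that in these differences was not tested. Among p53 targets the Myc effect was lower in 26 of 38 and higher in none by edgeR (1 at an unadjusted p below 0.05, 0 by DESeq2), and without replicate 3 it was 27 and 0; the list's median was -0.51 in the Myc knockout, 0.082 in the Taf5l knockout and 0.27 in the Taf6l knockout. For Perp the Myc effect minus the mean Taf effect was -2.31 ± 0.089 (edgeR adjusted p = 6.7e-11), with 0.27 in Taf5l-KO and 1.06 in Taf6l-KO. Hypoxia genes gave 15 lower and 2 higher of 31. In the other direction, the Myc effect was higher in 25 of 44 DNA replication genes and lower in 3, higher in 19 of 48 nuclear respiratory genes and lower in none by edgeR (0 at an unadjusted p below 0.05 and 0 by DESeq2), and higher in 18 of 35 pluripotency genes and lower in 6. Without replicate 3 these counts were 28 and 2, 27 and 0, and 21 and 7. In each of these lists both Taf knockouts had a negative median, so a higher Myc effect need not be a rise in Myc-KO. For DNA replication the medians were 0.051 in the Myc, -0.17 in the Taf5l and -0.16 in the Taf6l knockout. In the same order they were 0.066, -0.046 and -0.11 for the nuclear respiratory genes and 0.054, -0.18 and -0.21 for the pluripotency genes. The MYC targets gave 17 higher and 17 lower of 79, near the background in both directions, with medians of -0.083 in the Myc, -0.088 in the Taf5l and -0.11 in the Taf6l knockout.

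Single genes showed opposite signs between the experiments. Galnt6 had a log2 fold change of 0.56 in Taf5l-KO and 1.65 in Taf6l-KO, and the difference of the Myc effect from their mean was -5.06 ± 0.22. Nrp2, a semaphorin receptor, was at 11.6, 11.6 and 10.7 CPM in Myc-KO and 17.8, 17.2 and 19.7 in WT-Myc (-0.70 ± 0.084) but had 2.79 and 3.15 in the Taf5l and Taf6l knockouts, a difference of -3.64 ± 0.12. Lefty1, an inhibitor of Nodal, fell in Myc-KO (-0.98 ± 0.19) and had 2.33 and 2.37 in the other two. Efhc2 (6.64 ± 0.34), Dock10 (3.99 ± 0.18) and Slc11a1 (3.41 ± 0.20) were among the largest differences upward, and each of the 3 had a negative log2 fold change in both Taf knockouts.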

How the data were processed

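RNA sequencing was done on total RNA depleted of ribosomal RNA with a directional kit, per the labels. Per the submitters' processing notes, reads were processed with Salmon 0.8.2 and DESeq2 1.14.1 on mm9; no source used here gives the strand setting. One deposited table holds estimated counts, rounded to whole numbers by gene, and another deposited table holds FPKM values. The authors' normalized counts were not used, nor was a TPM table, of which 15 columns could not be matched to samples. The 6 libraries of the Myc experiment were fitted with edgeR 4.0.16 (R 4.3.3; filterByExpr, TMM, quasi-likelihood F test, Benjamini-Hochberg adjustment over all tested genes, threshold 0.05). CPM are TMM-scaled in all values except the marker sums and the values of Col1a1, Col1a2, Col3a1 and Thy1, which use library totals. The contrast with the Taf knockouts used all 15 libraries. Replicates were kept as labelled, and no library was merged with another. Alternatives were DESeq2 1.42.0, RLE scaling, library totals, no filter, each library left out, the replicate number as a block, and limma 3.58.1 on log2(FPKM + 1) and log2(FPKM + 0.1) (mean FPKM 0.5 or more). The scripts were tested on simulated counts. Chromosomes came from a GENCODE annotation matched by gene ID (87.4% of 37310 genes), and coordinates are printed only for RefSeq promoters. Named genes were Myc and its partners, the 12 largest rises and 12 largest falls with a mean of at least 100 counts and groups apart, up to 5 members of each of 42 lists by smallest p, 4 genes each way that differed most from the Taf knockouts, and the 6 genes each way farthest off in replicate 3. The defining stem cell markers and printed promoters had rules of their own. Lists and rules were chosen with earlier results of these data known. Few genes were placed in more than 1 list: the 1203 matched entries were 1197 distinct genes. Pes1, Ccnd2 and Ldha counted among the MYC targets and not under ribosome biogenesis, G1 regulators and glycolysis. Biological coefficient of variation was 10.2%, and count depth limits the precision of scarce genes.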

Additional observations from a re-analysis of the deposited data

How the results depend on the processing

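The counts of genes called higher and lower in Myc-KO kept within 1.5 times of 2217 and 2847 under RLE scaling, library totals, DESeq2, no filter, protein-coding genes only and without chromosome 14. Higher calls moved to 3518 with all 15 libraries in a single fit and to 303 with the 2-fold minimum; lower calls moved to 1636 and 1640 on log2(FPKM + 1) and log2(FPKM + 0.1) and to 582 with the 2-fold minimum, which removes small changes by construction. The other causes were not tested. Leaving out 1 library at a time gave 1364 (without WT-Myc replicate 2) to 2876 higher calls (without Myc-KO replicate 3) and 2038 to 3047 lower calls. Same-numbered Myc-KO and WT-Myc libraries did not deviate together (correlations of -0.18, -0.028 and -0.26). With 3 libraries per group, deviations from the group mean are tied to each other, so these values cannot decide whether the numbers mark pairs. With the replicate block 1216 genes were higher and 1923 lower, and the call for Kif20a was lost only there. The contrast with the Taf knockouts gave 2510 to 3320 higher and 2464 to 2958 lower calls over its alternatives. Of 211 named genes that were called, 159 kept direction and call under every alternative but the 2-fold minimum. Signs turned on FPKM values, at log2(FPKM + 1) and log2(FPKM + 0.1) respectively, for Ep400 (0.0101 and 0.0102), E2f3 (0.0296 and 0.0307) and Pax6 (0.116 and 0.119). The lengths behind the FPKM values were not checked. Scarce genes, such as the histones, are limited by depth.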
